A study of Mus musculus with 6 samples.

Results

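The genes described here mark the glutamatergic projection neurons of the cerebral cortex and the layers in which they lie. They are 30 named genes, taken by symbol from a table of 33274 gene rows. They comprise 8 genes of excitatory neurons in general, 9 of the upper layers, 12 of the deep layers, and Satb1, which belongs to none of these classes. Each symbol had a single row, and all 30 members passed the filter on low counts, among 18327 genes tested. RNA-seq covered the cerebral cortex of wild-type females of the outbred ICR stock, aged 6 weeks, with 3 libraries in the methylphenidate lineage and 3 in the saline lineage. The mice were grandoffspring in the male line. Over 21 days the grandsires were given subcutaneous methylphenidate (15 mg/kg), a blocker of dopamine and noradrenaline reuptake, or saline (10 mL/kg), and untreated females were their mates. From each resulting litter 1 randomly chosen male was mated with another untreated female, so that neither the sequenced mice nor their fathers had been dosed. Which animals shared a grandsire or litter is not in the labels, so the p-values measure the spread between these 6 samples only.

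In the neocortex, excitatory neurons load glutamate into vesicles and project within the cortex or out of it, and neurons born at different times settle in different layers. Neurons of the upper layers connect cortical areas with each other, and layer IV receives thalamic input. Neurons of layer V project to the striatum, brainstem and spinal cord, those of layer VI to the thalamus, and a thin sheet at the base of the cortex derives from the embryonic subplate. Transcription factors such as Cux2, Fezf2, Bcl11b and Tbr1 set and maintain these identities. In bulk tissue, fewer cells of a type and less RNA per cell cannot be told apart.

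Total counts were 23896752 to 28120640 per library in the methylphenidate lineage and 24000528 to 26914606 in the saline lineage. All levels are CPM, counts scaled to a library of 1000000 reads after TMM normalization, and the members had from 2.07 CPM (Nxph4) to 1710.0 CPM (Nrgn) in single libraries. Slc17a7, the vesicular glutamate transporter of cortical excitatory neurons, was abundant in every library of this labelled cortex, at 1020.3 to 1249 CPM. Genes of neighbouring tissue were also present. A list of 12 genes of striatal projection neurons summed to 466 to 960 CPM in the methylphenidate lineage and 359 to 473 CPM in the saline lineage, and 1 gene of that list, Isl1, had no count in saline replicate 3. The sum of 11 basal forebrain and hypothalamic genes was 9.24 to 17.9 CPM in the methylphenidate lineage and 1.52 to 3.81 CPM in the saline lineage, and 7 of them, Avp, Oxt and Hcrt among them, were at 0 in some library. A thalamic list of 7 genes summed to 68.3 to 112.9 CPM in the methylphenidate lineage and 67.7 to 74.3 CPM in the saline lineage. A hippocampal list of 10 genes summed to 248 to 271 CPM in the methylphenidate lineage and 203 to 209 CPM in the saline lineage. The median log2 fold change of these 10 genes was 0.00, with 5 of them above 0. Zbtb20 and Wfs1, the most abundant of the list, weighed most on its sum. The part of such tissue in the members' values was not tested. Lists of interneuron, astrocyte, oligodendrocyte, microglial, endothelial, meningeal and choroid plexus genes overlapped between the lineages in their summed level.

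No member differed between the lineages past an adjusted p of 0.05 (edgeR quasi-likelihood test, Benjamini-Hochberg over all genes), where 0.0273% of all genes tested did (0.0218% higher and 0.00546% lower in the methylphenidate lineage). Limma-voom called none of them either. Adjusted p over the members ran from 0.213 (Otof) to 1.00 (Calb1), and log2 fold changes, methylphenidate lineage minus saline lineage, from -0.43 (Sulf1) to 0.52 (Bcl11b). At an unadjusted p under 0.05, 11 members differed, 9 lower and 2 higher in the methylphenidate lineage, beside 7.51% of all genes tested, 3.31% lower and 4.2% higher. Without methylphenidate replicate 3 the count of lower members was 3, and without saline replicate 2 it was 4. DESeq2 called 3 members, Cux1 lower and Otof and Bcl11b higher, beside 0.756% of the genes it tested (0.533% higher and 0.223% lower). Log2 fold changes were below 0 for 23 of the 30 members, Calb1 only under some library scalings, beside 49.7% of all genes. The median was -0.15 over the members and 0.00 over all genes tested. The groups did not overlap in 8 members, 6 lower and 2 higher, beside 13.5% of all genes tested (6.51% lower and 6.97% higher). As the members were chosen with results of these libraries known, these counts are a description.

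**Figure D1:**
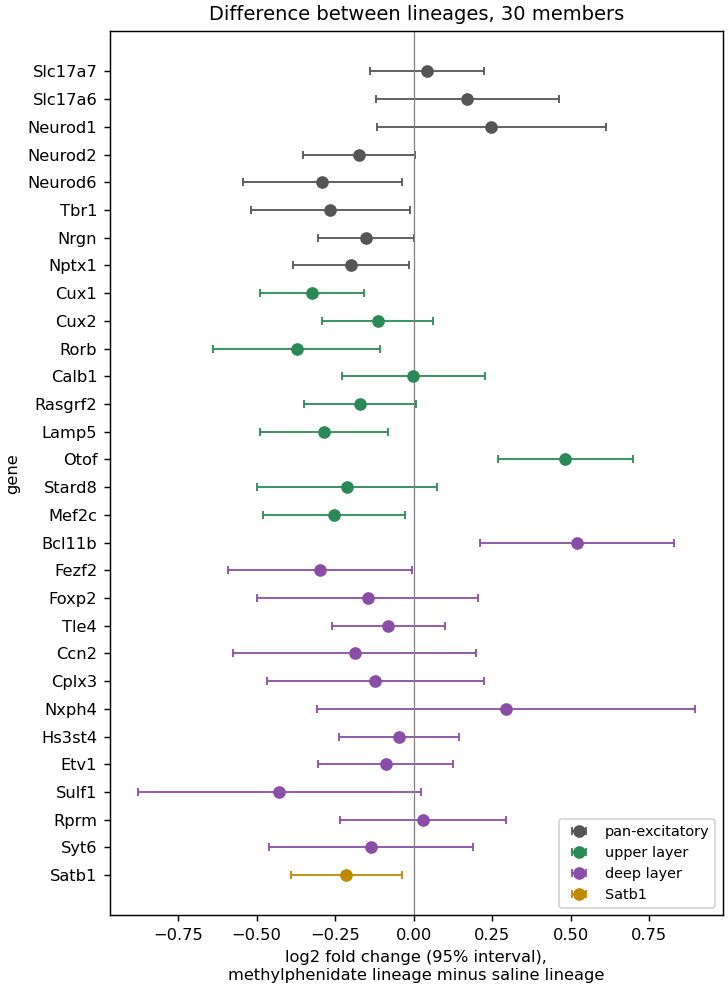
Log2 fold change of each of the 30 members (x axis, methylphenidate lineage minus saline lineage, with 95% intervals from the edgeR fit; n = 3 libraries per lineage), genes from top to bottom by class. Otof at 0.48 and Bcl11b at 0.52 stand to the right of 0, and 23 members lie to its left, Calb1 so near to 0 that its sign turns with the scaling.

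The region upstream of the start site is shown for Tbr1, Nrgn, Cux1 and Bcl11b, the members whose groups did not overlap and which had a single start in the promoter table of RefSeq (build GRCm38.p6). The table held 23 of the 30 members. The windows are the 250 bases before the start, printed 5′ to 3′ on the gene's strand, at chr2:61804203-61804452 (plus strand) for Tbr1, chr9:37552746-37552995 (minus strand) for Nrgn, chr5:136565982-136566231 (minus strand) for Cux1 and chr12:108003415-108003664 (minus strand) for Bcl11b. Capitals mark the E-box CAGATG, a form bound by NeuroD-type factors, on either strand (CATCTG on the other), and the palindromic E-box CAGCTG.
Tbr1: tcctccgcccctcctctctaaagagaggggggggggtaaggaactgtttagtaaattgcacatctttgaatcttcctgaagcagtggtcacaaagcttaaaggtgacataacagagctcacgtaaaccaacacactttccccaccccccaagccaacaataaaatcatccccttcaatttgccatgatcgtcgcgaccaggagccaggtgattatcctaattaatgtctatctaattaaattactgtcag
Nrgn: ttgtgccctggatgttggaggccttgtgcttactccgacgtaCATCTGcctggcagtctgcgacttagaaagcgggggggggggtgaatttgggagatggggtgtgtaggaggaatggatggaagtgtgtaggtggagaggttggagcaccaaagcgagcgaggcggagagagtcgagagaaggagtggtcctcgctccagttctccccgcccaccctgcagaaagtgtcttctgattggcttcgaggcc
Cux1: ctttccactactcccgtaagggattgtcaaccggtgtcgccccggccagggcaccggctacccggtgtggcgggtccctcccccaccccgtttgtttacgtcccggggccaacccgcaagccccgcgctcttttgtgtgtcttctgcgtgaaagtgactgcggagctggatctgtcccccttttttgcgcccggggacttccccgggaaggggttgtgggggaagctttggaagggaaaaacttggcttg
Bcl11b: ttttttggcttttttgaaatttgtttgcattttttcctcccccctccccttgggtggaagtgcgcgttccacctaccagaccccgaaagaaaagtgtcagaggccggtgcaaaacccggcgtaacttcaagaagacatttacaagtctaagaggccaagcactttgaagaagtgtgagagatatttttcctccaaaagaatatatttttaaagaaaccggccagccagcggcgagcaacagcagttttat
CAGATG was found once, in the Nrgn window, and CAGCTG in none of the 4 windows. Over all 37 windows of the 23 members, 16.2% held CAGATG on either strand and 16.2% held CAGCTG, beside 14.4% and 13% of all 32851 promoter windows of the same length in the table. A match is a description of the sequence only. The GC content was 45.2% for Tbr1, 58.4% for Nrgn, 62.8% for Cux1 and 44.8% for Bcl11b, with 5, 11, 18 and 9 CpG dinucleotides.

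Of the 8 genes of excitatory neurons in general, 5 had a log2 fold change below 0 and none passed the threshold. The transporter Slc17a7 had 1020.3, 1249 and 1146 CPM in methylphenidate replicates 1 to 3, against 1063, 1095 and 1158 CPM in saline replicates 1 to 3. The groups overlapped fully, and the 95% interval of the log2 fold change ran from -0.14 to 0.22. Slc17a6, the vesicular glutamate transporter that prevails in the thalamus and other subcortical regions, had 40.3, 35.7 and 31.8 CPM in methylphenidate replicates 1 to 3, against 32.5, 36.5 and 26.7 CPM in saline replicates 1 to 3. Its highest library, methylphenidate replicate 1, also had the highest sum of the thalamic list, 112.9 CPM, and the part of thalamic tissue in this value was not tested.

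The NeuroD proteins are basic helix-loop-helix transcription factors that promote and maintain excitatory neuron differentiation. Neurod6 had 47.9, 55.4 and 49.2 CPM in methylphenidate replicates 1 to 3, against 51.8, 68.1 and 66.8 CPM in saline replicates 1 to 3, and its log2 fold change was -0.29 (SE 0.11, edgeR adjusted p = 0.606). The groups overlapped through saline replicate 1 alone. Neurod2 averaged 74.2 ± 6.7 CPM in the methylphenidate lineage and 83.7 ± 3.3 CPM in the saline lineage (SD, n = 3 each), while Neurod1 averaged 14.2 ± 3.2 CPM in the methylphenidate lineage and 12.0 ± 0.79 CPM in the saline lineage. For Neurod1, methylphenidate replicate 2 stood highest at 17.9 CPM, beside 12.6 and 12.2 CPM in replicates 1 and 3. The family had point estimates on both sides of 0, with log2 fold changes of 0.25 (SE 0.16) for Neurod1, -0.17 (SE 0.08) for Neurod2 and -0.29 for Neurod6; without methylphenidate replicate 2 that of Neurod1 was 0.05.

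Tbr1, a T-box factor of early-born and layer VI neurons, had 135, 136 and 104 CPM in methylphenidate replicates 1 to 3, against 143, 168 and 139.6 CPM in saline replicates 1 to 3 (log2 fold change -0.27, SE 0.11, edgeR adjusted p = 0.643). All methylphenidate libraries lay below all saline libraries, replicates 1 and 2 only slightly so. Without methylphenidate replicate 3 the log2 fold change of Tbr1 was -0.15. Nrgn, which encodes neurogranin, a calmodulin-binding protein of dendritic spines, had 1648, 1495 and 1429 CPM in methylphenidate replicates 1 to 3, against 1683, 1683 and 1710.0 CPM in saline replicates 1 to 3. The saline libraries were close together and all above the methylphenidate libraries, and the log2 fold change was -0.15 (SE 0.07, edgeR adjusted p = 0.670). Nptx1, a secreted pentraxin that gathers glutamate receptors at synapses, averaged 301 ± 27.9 CPM in the methylphenidate lineage and 346 ± 25.0 CPM in the saline lineage (SD, n = 3 each; log2 fold change -0.20, SE 0.08, edgeR adjusted p = 0.636).

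In the upper-layer class, 8 of 9 members had a log2 fold change below 0, with Calb1 turning above 0 under total-count and upper-quartile scaling, and none passed the threshold over all genes. Cux1, a homeodomain factor of upper-layer neurons, had 86.3, 82.9 and 73.4 CPM in methylphenidate replicates 1 to 3, against 99.9, 102 and 101 CPM in saline replicates 1 to 3. The saline libraries lay within a few CPM of each other and above every methylphenidate library. Its log2 fold change was -0.32 (SE 0.07, edgeR adjusted p = 0.247; DESeq2 adjusted p = 0.0294). Its paralog Cux2 had 127, 136 and 112 CPM in methylphenidate replicates 1 to 3, against 131, 137 and 139 CPM in saline replicates 1 to 3. The groups of Cux2 overlapped, and its log2 fold change was -0.11, with a 95% interval of -0.29 to 0.06.

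Rorb, a nuclear receptor that marks layer IV, had 50.0, 52.0 and 37.4 CPM in methylphenidate replicates 1 to 3, against 56.8, 61.6 and 62.2 CPM in saline replicates 1 to 3 (log2 fold change -0.37, SE 0.12, edgeR adjusted p = 0.534). Its groups were separate, and methylphenidate replicate 3 was the lowest by a wide margin; without it the log2 fold change was -0.24. Lamp5, a lysosome-associated membrane protein gene of upper-layer neurons and of one class of interneurons, had 232, 194 and 179 CPM in methylphenidate replicates 1 to 3, against 251, 251 and 236 CPM in saline replicates 1 to 3. The groups did not overlap, although methylphenidate replicate 1 came close to saline replicate 3, and the log2 fold change was -0.28 (SE 0.09, edgeR adjusted p = 0.534). Mef2c, an activity-regulated transcription factor, averaged 686 ± 78.8 CPM in the methylphenidate lineage and 818 ± 89.1 CPM in the saline lineage (SD, n = 3 each; log2 fold change -0.25, SE 0.10, edgeR adjusted p = 0.623).

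Otof was the exception in the upper-layer class. It encodes otoferlin, a calcium sensor of vesicle fusion known from inner hair cells, and it marks neurons of layers II and III. It had 30.3, 35.9 and 33.6 CPM in methylphenidate replicates 1 to 3, against 25.2, 22.7 and 23.4 CPM in saline replicates 1 to 3. Every methylphenidate library exceeded every saline library, and the log2 fold change was 0.48 (SE 0.10, edgeR adjusted p = 0.213; DESeq2 adjusted p = 0.0202). Leaving out any single library gave a log2 fold change between 0.42 and 0.55, with edgeR adjusted p of 0.174 to 0.595. The 3 remaining upper-layer members had overlapping groups. Calb1, the gene of the calcium buffer calbindin, which interneurons express too, averaged 168 ± 24.7 CPM in the methylphenidate lineage and 168 ± 11.9 CPM in the saline lineage. Rasgrf2, an exchange factor for Ras, averaged 195 ± 20 CPM in the methylphenidate lineage and 220.1 ± 8.7 CPM in the saline lineage. Stard8, the gene of a GTPase-activating protein, averaged 38.2 ± 4.9 CPM in the methylphenidate lineage and 44.2 ± 6.4 CPM in the saline lineage (SD, n = 3 each).

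**Figure D2:**
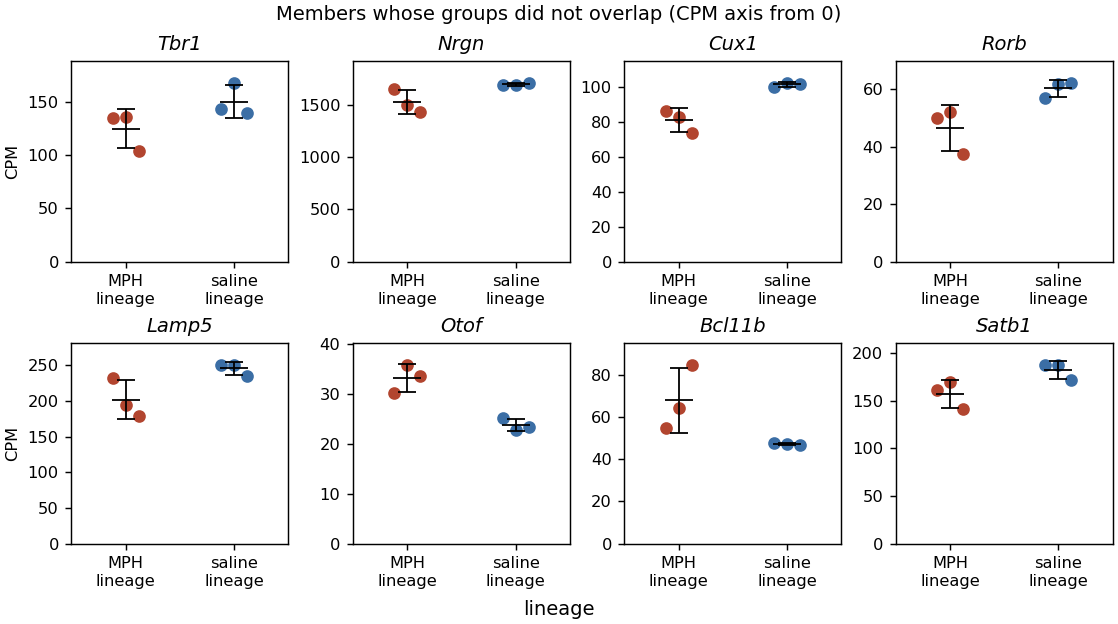
CPM (y axis, from 0) of the 8 members whose groups did not overlap, with 1 point per library, the mean as a short line and the SD as an error bar (n = 3 per lineage; MPH, methylphenidate). Otof and Bcl11b were higher in all methylphenidate libraries, and Tbr1, Nrgn, Cux1, Rorb, Lamp5 and Satb1 were lower in all of them; none passed an adjusted p of 0.05 by edgeR.

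The deep-layer class had 9 of 12 members with a log2 fold change below 0 and likewise none past the threshold. Among the genes of layer V, Bcl11b stood apart from the others. It encodes the zinc finger factor CTIP2, which subcerebral projection neurons of the cortex and the projection neurons of the striatum both express. It had 54.6, 64.4 and 84.7 CPM in methylphenidate replicates 1 to 3, against 47.9, 47.2 and 46.9 CPM in saline replicates 1 to 3 (log2 fold change 0.52, SE 0.14, edgeR adjusted p = 0.363; DESeq2 adjusted p = 0.0212). The saline libraries were nearly equal, while the methylphenidate libraries were all higher and spread widely. Without methylphenidate replicate 3 the log2 fold change was 0.33, and without replicate 1 it was 0.65. Fezf2, a zinc finger factor that specifies subcerebral projection neurons and acts upstream of Bcl11b in mouse development, had 20.9, 27.1 and 22.1 CPM in methylphenidate replicates 1 to 3, against 28.1, 32.9 and 25.3 CPM in saline replicates 1 to 3. Its point estimate lay on the other side of 0 from that of Bcl11b, at -0.30 on the log2 scale (SE 0.13, edgeR adjusted p = 0.657). Etv1, an ETS factor of layer V, averaged 80.0 ± 5.8 CPM in the methylphenidate lineage and 85.1 ± 10.3 CPM in the saline lineage (SD, n = 3 each).

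Levels of the striatal list stood higher in the methylphenidate lineage along with Bcl11b. The summed level of the list was 743, 466 and 960 CPM in methylphenidate replicates 1 to 3, against 473, 376 and 359 CPM in saline replicates 1 to 3. Methylphenidate replicate 3 was highest in both. The list mean of centred log2 CPM was taken over the 11 tested genes, without Isl1. It weights genes of few counts as much as abundant ones. It stood at 0.83, -0.02 and 1.25 in methylphenidate replicates 1 to 3, against -0.17, -0.90 and -0.99 in saline replicates 1 to 3. By this mean the lineages did not overlap, as for Bcl11b, whereas by the sum methylphenidate replicate 2 lay within the saline range. That library had 64.4 CPM of Bcl11b, above every saline library. Methylphenidate replicate 1 had the lower Bcl11b level of 54.6 CPM at a higher striatal level by both measures. The part of striatal tissue in the Bcl11b values was not tested. None of the 11 tested striatal genes passed the threshold over all genes. Adcy5 and Ppp1r1b, which encode signalling proteins of striatal neurons and are among the most abundant of that list, were at log2 fold changes of 0.66 for Adcy5 and 0.72 for Ppp1r1b. At an unadjusted p under 0.05 by edgeR, 9 of the 11 were higher, beside 4.2% of all genes tested. As the list was chosen with results of these data known, this count is a description. Foxp2, a forkhead factor that layer VI and striatal neurons share, averaged 10.9 ± 1.2 CPM in the methylphenidate lineage and 12.0 ± 1.9 CPM in the saline lineage (SD, n = 3 each; log2 fold change -0.15, SE 0.16). A fit that added the mean of the striatal list as a term was tried only once the data were known. In it the log2 fold change was 0.27 for Bcl11b, 0.51 for Otof, -0.21 for Cux1 and -0.01 for Rorb. Foxp2 was at -0.58, Syt6 at -0.59 and Neurod1 at 0.73, further from 0 than without the term. The edgeR adjusted p of these genes were 0.974 to 0.998. As the list mean did not overlap between the lineages, the fit cannot tell striatal level and lineage apart.

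**Figure D3:**
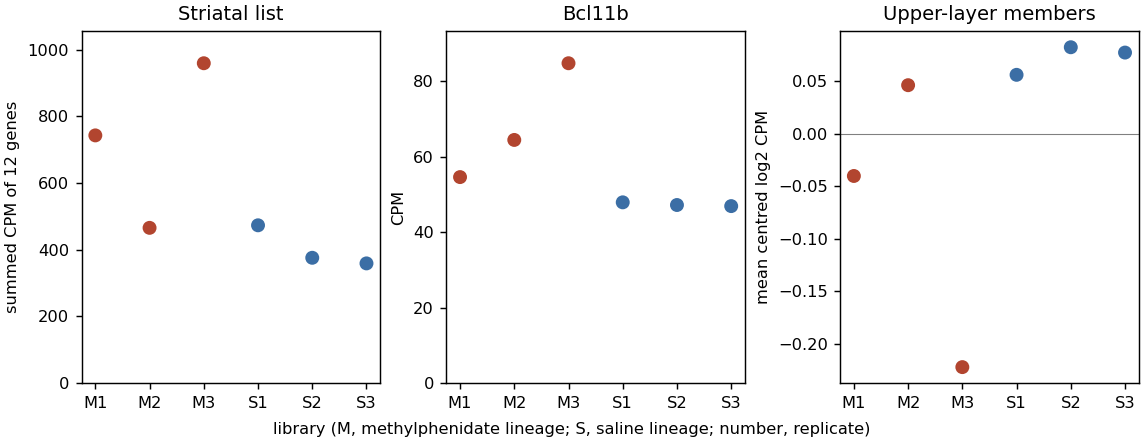
Summed CPM of the 12 striatal genes (left), CPM of Bcl11b (middle) and the mean centred log2 CPM of the 9 upper-layer members (right) in each of the 6 libraries. Methylphenidate replicate 3 has the highest striatal sum (960 CPM), the highest Bcl11b (84.7 CPM) and the lowest upper-layer mean (-0.22), whereas replicate 2 has a striatal sum of 466 CPM and 64.4 CPM of Bcl11b.

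The layer VI genes of the deep-layer class had overlapping groups. Tle4, a transcriptional corepressor, averaged 47.5 ± 3.0 CPM in the methylphenidate lineage and 50.2 ± 1.9 CPM in the saline lineage, and Hs3st4, a heparan sulfate sulfotransferase, averaged 58.9 ± 2.5 CPM in the methylphenidate lineage and 60.8 ± 5.7 CPM in the saline lineage (SD, n = 3 each). The 95% intervals of their log2 fold changes were -0.26 to 0.10 and -0.24 to 0.14. Rprm, the gene of the cell cycle inhibitor reprimo, averaged 36.4 ± 5.5 CPM in the methylphenidate lineage and 35.7 ± 2.6 CPM in the saline lineage, and Syt6, a synaptotagmin, averaged 19.7 ± 2.2 CPM in the methylphenidate lineage and 21.6 ± 4.0 CPM in the saline lineage (SD, n = 3 each). Sulf1, a deep-layer gene of an enzyme that removes sulfate from heparan sulfate outside the cell, had 18.6, 18.3 and 13.7 CPM in methylphenidate replicates 1 to 3, against 15.8, 28.0 and 24.3 CPM in saline replicates 1 to 3. Its groups overlapped through saline replicate 1, and its log2 fold change was -0.43 (SE 0.20, edgeR adjusted p = 0.675). Leaving out saline replicate 2 gave -0.25, and leaving out saline replicate 1 gave -0.63.

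The subplate-derived sheet at the base of the cortex is marked by Ccn2, a matricellular protein gene, Cplx3, a complexin gene of vesicle fusion, and Nxph4, a neurexophilin gene. Ccn2 had 24.02, 28.4 and 22.7 CPM in methylphenidate replicates 1 to 3, against 36.3, 27.6 and 21.6 CPM in saline replicates 1 to 3. Saline replicate 1 was the highest of the 6 libraries for both Ccn2 and Cplx3, which averaged 15.7 ± 2.3 CPM in the methylphenidate lineage and 17.1 ± 2.9 CPM in the saline lineage (SD, n = 3 each). Nxph4, the member with the fewest counts, averaged 3.04 ± 0.67 CPM in the methylphenidate lineage and 2.48 ± 0.36 CPM in the saline lineage. The log2 fold change was -0.19 (SE 0.17) for Ccn2, -0.12 (SE 0.15) for Cplx3 and 0.29 (SE 0.27) for Nxph4, and the edgeR adjusted p were 0.865 to 0.902.

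Satb1, a chromatin organiser that cortical interneurons also express, had 161, 169 and 141 CPM in methylphenidate replicates 1 to 3, against 188, 187 and 172 CPM in saline replicates 1 to 3. The groups did not overlap, by a narrow margin between methylphenidate replicate 2 and saline replicate 3, and the log2 fold change was -0.21 (SE 0.08, edgeR adjusted p = 0.598). The interneuron list of 11 genes summed to 1109 to 1192 CPM in the methylphenidate lineage and 1068 to 1135 CPM in the saline lineage. Gad1, Gad2 and Sst, the most abundant of the list, weighed most on its sum. Its genes went both ways, with 7 of the 11 at a log2 fold change above 0 and a median of 0.04. The part of interneurons in the Satb1 values was not tested.

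Set side by side as classes, the median log2 fold change was -0.16 for the pan-excitatory members, -0.21 for the upper-layer members and -0.11 for the deep-layer members, beside 0.00 for all genes tested. With the striatal list mean as a covariate the medians were 0.04, -0.01 and -0.16 in the same order of classes. That mean did not overlap between the lineages, so this fit cannot tell striatal level and lineage apart. The part of striatal tissue in the medians was not tested. The class mean of centred log2 CPM, a measure of level relative to the mean of the 6 libraries, was -0.04, 0.05 and -0.22 for the upper-layer members in methylphenidate replicates 1 to 3, against 0.06, 0.08 and 0.08 in saline replicates 1 to 3. Methylphenidate replicate 3 was the lowest and replicate 2 about level with saline replicate 1. For the pan-excitatory members the class mean was -0.05, 0.08 and -0.15 in methylphenidate replicates 1 to 3, against 0.00, 0.10 and 0.02 in saline replicates 1 to 3, and the groups overlapped. For the deep-layer members it was -0.03, -0.03 and -0.02 in methylphenidate replicates 1 to 3, against 0.11, 0.06 and -0.09 in saline replicates 1 to 3, so that the saline libraries spanned the methylphenidate libraries. Without saline replicate 1 the deep-layer median was 0.02, and 5 rather than 9 members were below 0; without saline replicate 3 the median was -0.16.

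**Figure D4:**
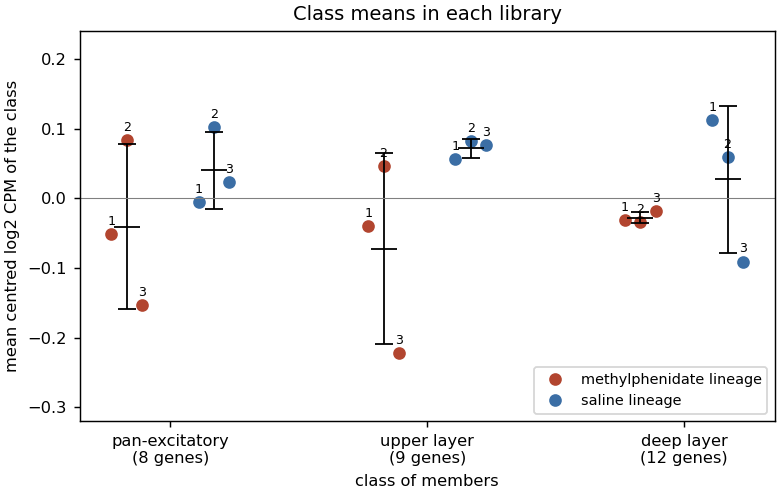
Mean centred log2 CPM of the pan-excitatory, upper-layer and deep-layer members (y axis) in each library, with the replicate number above each point and the mean ± SD per lineage in black (n = 3 each). The upper-layer means run from -0.22 to 0.05 in the methylphenidate lineage and from 0.06 to 0.08 in the saline lineage, and the deep-layer means overlap.

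The balance of upper against deep layers was taken as the upper-layer mean minus the deep-layer mean of each library, which library scaling does not affect. It was -0.01, 0.08 and -0.20 on the log2 scale in methylphenidate replicates 1 to 3, against -0.06, 0.02 and 0.17 in saline replicates 1 to 3. It averaged -0.04 ± 0.14 in the methylphenidate lineage and 0.04 ± 0.11 in the saline lineage (SD, n = 3 each), a difference of -0.09, which was smaller than either spread. Taken over the median of the members in place of the mean, the difference was -0.17, and with Bcl11b and Foxp2 left out of the deep-layer class it was -0.04. Without methylphenidate replicate 3 it was -0.01, without methylphenidate replicate 2 -0.15, without saline replicate 1 -0.14 and without saline replicate 3 -0.03. Upper-layer minus pan-excitatory means averaged -0.03 ± 0.04 in the methylphenidate lineage and 0.03 ± 0.04 in the saline lineage.

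Single libraries weighed on these values. Methylphenidate replicate 3 was the lowest library for 7 of the 9 upper-layer members and for 14 of all 30 members, where it was the lowest library for 19.6% of all genes tested. The exceptions in the upper-layer class were Rasgrf2, lowest in methylphenidate replicate 1, and Otof, lowest in saline replicate 2. Among the 12 deep-layer members methylphenidate replicate 3 was lowest for 3. This library also had the highest striatal sum, 960 CPM, and the lowest sum of the choroid plexus list, 25.0 CPM, among sums of up to 503 CPM in the methylphenidate lineage and up to 658 CPM in the saline lineage; their part in the upper-layer values was not tested. Saline replicate 2 was the highest library for 10 members, and for 18.2% of all genes tested. Within a lineage, the SD between libraries had a median of 0.17 on the log2 scale over the members, beside 0.11 over the 10342 genes tested with a mean of 10 to 1000 CPM and 0.18 over all genes tested. It was largest for Sulf1, at 0.35, and for Ccn2, at 0.29, and smallest for Nrgn and Tle4, at 0.07 and 0.08.

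**Figure D5:**
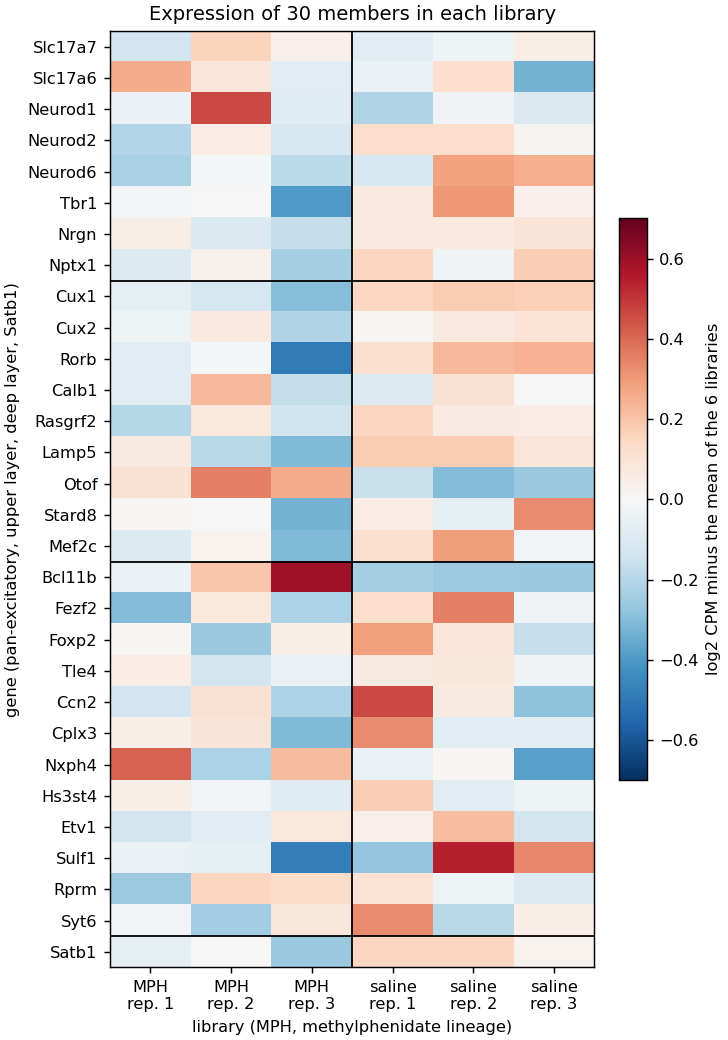
Log2 CPM of the 30 members (rows, by class) in the 6 libraries (columns), each minus the gene's mean over the 6 libraries. In methylphenidate replicate 3 most upper-layer genes are low and Bcl11b is high, and in saline replicate 1 Ccn2 and Cplx3 are high.

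Per kilobase of annotated exon, the members spanned a wide range of levels. Nrgn was the most abundant, at 1049 ± 77.3 CPM per kilobase in the methylphenidate lineage and 1164.5 ± 10.7 CPM per kilobase in the saline lineage, followed by Slc17a7 at 211 ± 21.2 CPM per kilobase in the methylphenidate lineage and 205 ± 8.9 CPM per kilobase in the saline lineage (SD, n = 3 each). Lamp5 was the most abundant upper-layer member, at 68.8 ± 9.3 CPM per kilobase in the methylphenidate lineage and 83.8 ± 3.0 CPM per kilobase in the saline lineage. The most abundant deep-layer member was Rprm, at 24.9 ± 3.7 CPM per kilobase in the methylphenidate lineage and 24.4 ± 1.8 CPM per kilobase in the saline lineage. Neurod6, Neurod2, Tbr1 and Rprm followed each other in this order at 24.7 to 26.3 CPM per kilobase over all 6 libraries and did not differ beyond their spread. Foxp2 was the least abundant by this measure, at 0.66 ± 0.08 CPM per kilobase in the methylphenidate lineage and 0.73 ± 0.11 CPM per kilobase in the saline lineage. Its exon length was 16.3 kilobases, and by CPM Nxph4 was the lowest member. Exon lengths were the union of all annotated exons of a gene, whichever transcripts were present. They came from an annotation of another genome build than that of the counts, so these levels and their order are approximate.

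Exons of 6 members overlap those of other genes in that annotation. Satb1, Ccn2, Hs3st4, Syt6 and Neurod1 had at least 292 counts in each library, while their partners with a row in the table had at most 54. Cux1 overlaps Gm16599, and Neurod1 also overlaps Gm26755, both on the opposite strand and both without a row in the table. The library kit was directional, but counting used a strand setting not given in the sources used here, so reads in the shared bases may belong to either gene.

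Other known genes of cortical projection neurons gave no call by edgeR either, and their DESeq2 results are not reported here. Of 10 further pan-excitatory genes, all tested, none passed the threshold over all genes, and 5 had a log2 fold change above 0 and 5 below (median -0.05). Bhlhe22, a transcription factor of the developing cortex, had a log2 fold change of 0.38 (SE 0.10), Chn1, a regulator of the GTPase Rac, one of -0.17 (SE 0.06) and Nrn1, which encodes neuritin, one of -0.24 (SE 0.09). Their edgeR adjusted p were 0.373 to 0.604. Of 10 further upper-layer genes, 5 had log2 fold changes above 0 and 5 below, with a median of -0.07. Mdga1, a membrane protein gene of upper-layer neurons, averaged 24.4 ± 1.8 CPM in the methylphenidate lineage and 16.7 ± 3.7 CPM in the saline lineage, and the log2 fold change was 0.54 (SE 0.15, edgeR adjusted p = 0.397). The POU factor genes Pou3f3 and Pou3f2 were at log2 fold changes of -0.17 (SE 0.06) and -0.36 (SE 0.13), and Rspo1, a Wnt pathway ligand gene of layer IV, one of -0.45 (SE 0.16). The adjusted p of these genes by edgeR were 0.555 to 0.585.

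Of 14 further deep-layer genes, 7 had log2 fold changes above 0 and 7 below, with a median of -0.03, and none passed the threshold. Crym, which encodes a thyroid hormone-binding protein, had a log2 fold change of 0.41 (SE 0.14), while Deptor, an inhibitor of mTOR, had one of -0.33 (SE 0.12) and the transcriptional repressor gene Bcl6 one of -0.30 (SE 0.12). Moxd1, a gene of a monooxygenase-like protein, had a log2 fold change of 0.35 (SE 0.18). Their edgeR adjusted p were 0.555 to 0.714.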

How the data were processed

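Libraries came from poly(A) RNA and a directional kit, per the labels' protocols. The authors deposited unnormalized counts in whole numbers for each Ensembl gene, with symbols in the same table. Bcl2fastq 2.19, fastp 0.23.4, HISAT2 2.2.1, StringTie 2.2.1 and the build GRCm39 appear, without roles, in the submitters' processing notes. The annotation release and strand setting were not given in the sources used here, so reads of overlapping genes may be shared.

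The test was edgeR 4.0.16 in R 4.3.3 (filterByExpr, TMM, quasi-likelihood test, group as the only term, two-sided, Benjamini-Hochberg over 18327 genes, threshold 0.05). Each standard error is the absolute log2 fold change over the root of its F statistic. Log2 CPM for class means used a prior count of 2. DESeq2 1.42.0, limma-voom (limma 3.58.1), other scalings and filters, a replicate block and leaving out each library were alternatives. A count of 0 allows up to 3 counts, 0.105 to 0.124 CPM, for counting error only. Chi-square per degree of freedom between libraries of a lineage was 13.0 to 19.9, above sampling noise, so each counted as a separate sample. The test was checked on simulated counts of independent libraries without differences in tissue content, and the outcome is not reported here.

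Members and lists were chosen with earlier results of these data known. Named genes were all members, up to 4 genes of smallest p in each further cortical list, and the most abundant striatal genes; some genes under this rule are not reported here. Exon lengths and overlaps came from GENCODE M21 (GRCm38).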

Additional observations from a re-analysis of the deposited data

How the results depend on the processing

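No member passed the threshold under RLE, upper-quartile or total-count scaling, no filter or a stricter filter, the replicate block, limma-voom, library sizes without mitochondrially encoded genes, a threshold of 0.1, or without any one library; DESeq2 called 3 members, Cux1 (-0.33), Otof (0.48) and Bcl11b (0.51). Over all genes, 5 calls became 10 with total counts, 3 with no filter, 149 by DESeq2, 11 at a threshold of 0.1, 2 with the striatal covariate and 2 to 26 without single libraries. With the replicate block there were 2 calls. Deviations of same-numbered libraries had correlations of -0.04, 0.09 and -0.02, beside -0.11 to 0.13 for libraries of unlike number. These values cannot settle whether the number pairs the samples. Scaling moved the median of all genes by at most 0.01.

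Of 480 member values under 16 alternatives, 22, in 14 members, changed sign, and each of these members had an adjusted p of at least 0.606 as reported. Calb1 had 0.0041 with upper-quartile scaling, 0.0093 with total counts and 0.0015 with the stricter filter. Leaving out single libraries turned Slc17a7 (-0.0301 to 0.115), Rprm (-0.0415 to 0.148), Calb1 (-0.127 to 0.0774), Ccn2 (-0.352 to 0.0245), Cplx3 (-0.197 to 0.0285), Hs3st4 (-0.0937 to 0.0329), Syt6 (-0.255 to 0.0098) and Etv1 (-0.171 to 0.0035). With the striatal covariate, chosen after the data were seen, Neurod6 had 0.0684, Tbr1 0.0164, Cux2 0.11, Calb1 0.36, Stard8 0.0599, Nxph4 -0.19 and Sulf1 0.25, and the pan-excitatory and upper-layer medians were 0.0424 and -0.0122. The covariate did not overlap between the lineages, so striatal level and lineage cannot be told apart here, and the cause was not tested. Without single libraries the deep-layer median ran from -0.161 to 0.0172, the upper-layer median from -0.27 to -0.15, the pan-excitatory median from -0.19 to -0.12, and upper minus deep from -0.15 to -0.01.

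With 3 libraries per lineage, the standard error of a member's log2 fold change was 0.07 to 0.27, which limits what could be detected.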
